A study of Mus musculus with 15 samples.

Results

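Interferon and JAK-STAT genes were described across 4 groups of mouse bone marrow-derived macrophages (BMDMs), with RNA counted on NanoString's nCounter panel for myeloid innate immunity. The members were the genes whose symbol begins with Irf, Ifi, Ifn, Isg, Oas, Gbp, Stat, Jak or Socs, or with Mx and a digit, plus Usp18 and Tyk2. This rule found 29 of the 754 genes in the table: 7 IRF transcription factors (Irf1, Irf2, Irf3, Irf4, Irf5, Irf7, Irf8), 6 STAT transcription factors (among them Stat3, Stat4, Stat5a, Stat5b, Stat6), 5 interferon-induced genes (Ifit1bl1, Ifit1bl2, Isg15, Mx1, Mx2), 4 inhibitors (Socs1, Socs2, Socs3, Usp18), 3 ligands (Ifna1, Ifnb1, Ifng), 3 receptor chains (Ifnar1, Ifnar2, Ifngr1) and the kinase gene Jak3. No gene of the table carried an Oas, Gbp or Tyk2 symbol.

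All BMDMs were grown from femoral marrow with M-CSF. MPLA cultures (4 samples, M1-like standards) received 20 ng/mL of monophosphoryl lipid A, an agonist of Toll-like receptor 4, and IL4 cultures (4 samples, M2-like standards) received 20 ng/mL of interleukin-4. The labels give 4 days of cytokine exposure for every group, and the same interleukin-4 dose for the nanoparticle groups. IRF5-NP cultures (3 samples, numbered 1, 2 and 4) were IL-4-conditioned BMDMs given nanoparticles with IRF5 mRNA for 1 h, and eGFP-NP cultures (4 samples) were IL-4-conditioned BMDMs given control nanoparticles with eGFP mRNA for 1 h. The labels give 1 µg of nanoparticles, whereas the methods give another amount as mRNA. By the methods, the IRF5 nanoparticles also held mRNA for the kinase IKKβ and some eGFP mRNA as a reporter, and brightly eGFP-positive cells were sorted and then kept in low-dose IL-4 medium, a dose below that of the labels, before lysis. RNA of the nanoparticle groups was thus taken days after the 1 h exposure. The sources used here describe no sorting or low-dose step for the standards. IRF5-NP therefore differed from eGFP-NP by both the IRF5 and the IKKβ message, and the nanoparticle groups differed from IL4 by particles together with sorting and the low-dose step, so far as described. Mouse strain, sex and age, and whether samples came from separate animals, were not given in the sources used here, so p-values measure the spread between these samples, which may be technical. The paper's figure legend calls the samples of this experiment biologically independent, but gives a sample number that differs from those here.

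Type I interferons (IFN-α and IFN-β) bind the Ifnar1/Ifnar2 receptor, and IFN-γ binds a receptor that contains Ifngr1. JAK kinases attached to these and many other cytokine receptors phosphorylate STAT proteins, which enter the nucleus and switch on target genes. STAT6 carries the signal of IL-4. IRF proteins act both above this pathway, inducing interferon after pathogen sensing, and below it. Socs proteins and Usp18 are induced by the pathway and restrain it.

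Total gene counts ranged from 266169 (IRF5-NP 4) to 1784833 per library, and the background of each library, the mean of its 8 negative control probes plus 2 SD, lay at 19.7 to 34.9 counts. eGFP-NP 1 and 2 did not differ detectably beyond sampling noise over genes whose counts in the pair summed to 40 or more (chi-square per degree of freedom 1.09, p = 0.0817), although they did over genes that summed to 100 or more (1.15, p = 0.0162). They were counted as 1 sample, written eGFP-NP 1-2, which left 14 libraries and n = 3 for eGFP-NP. Kept separate, they likewise gave 0 called members in both comparisons that use eGFP-NP. MPLA 1 and 4, MPLA 2 and 3, IRF5-NP 1 and 2, and eGFP-NP 3 and 4 were also nearly identical pairs. The means of 7 fibroblast genes (Cdh11, Col1a2, Col3a1, Fn1, Pdgfra, Pdgfrb, Timp3) lay between 10.1 and 12.7 log2 CPM in 10 of the libraries but at 4.67 in IL4 3, 4.15 and 4.00 in IRF5-NP 1 and 2, and 4.02 in eGFP-NP 1-2. The mean over 12 macrophage markers lay between 9.46 and 10.9 log2 CPM in every library, with Aif1 above background in none. Log2 CPM is the log2 of a count scaled to a common library total by TMM, with a prior count of 2. Probes bind with unequal efficiency, so levels are compared between libraries and not between genes. In bulk RNA, fewer cells of a type and less RNA per cell cannot be told apart.

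Among the ligands, no expression was measurable for Ifnb1 and Ifng. Ifng, which encodes IFN-γ, gave 5, 8, 13 and 12 counts in MPLA, 7, 9, 10 and 14 in IL4, 17, 15 and 7 in IRF5-NP and 9, 9, 6 and 6 in eGFP-NP. No library exceeded its background for Ifng, Ifnb1 or the interferon-induced gene Ifit1bl2, whose highest count together was 30. Ifna1, which encodes an IFN-α, gave 13 to 26 counts and exceeded background in 1 library, IL4 2. The panel held a single Ifna probe, and other IFN-α genes were not analysed here.

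The receptor chains were measured above background in all 15 libraries. Ifnar1 ranged from 8.79 to 9.98 log2 CPM, Ifnar2 from 9.07 to 10.21 and Ifngr1 from 8.75 to 10.03, and IRF5-NP 4 was the lowest library for all 3 chains. The edgeR test called no receptor chain in any comparison. Ifngr1 was lower in MPLA (9.43 ± 0.054 log2 CPM, SD, n = 4) than in IL4 (9.85 ± 0.17, n = 4) without overlap, although its difference of -0.41 ± 0.18 (log2, SE) did not pass the test (edgeR adjusted p = 0.125). DESeq2 called Ifngr1 in this comparison (-0.49 ± 0.11, adjusted p = 0.000108). Jak3, a kinase that pairs with the common gamma chain of the IL-4 receptor, was dim, at 4.78 to 6.42 log2 CPM, and edgeR did not call it in any comparison.

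In all, 17 members exceeded background in all 15 libraries, 3 in none and 9 (Irf4, Irf7, Jak3, Stat4, Socs3, Ifit1bl1, Mx1, Mx2, Ifna1) in some. Between 19 and 24 members per library were above background.

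**Figure D1:**
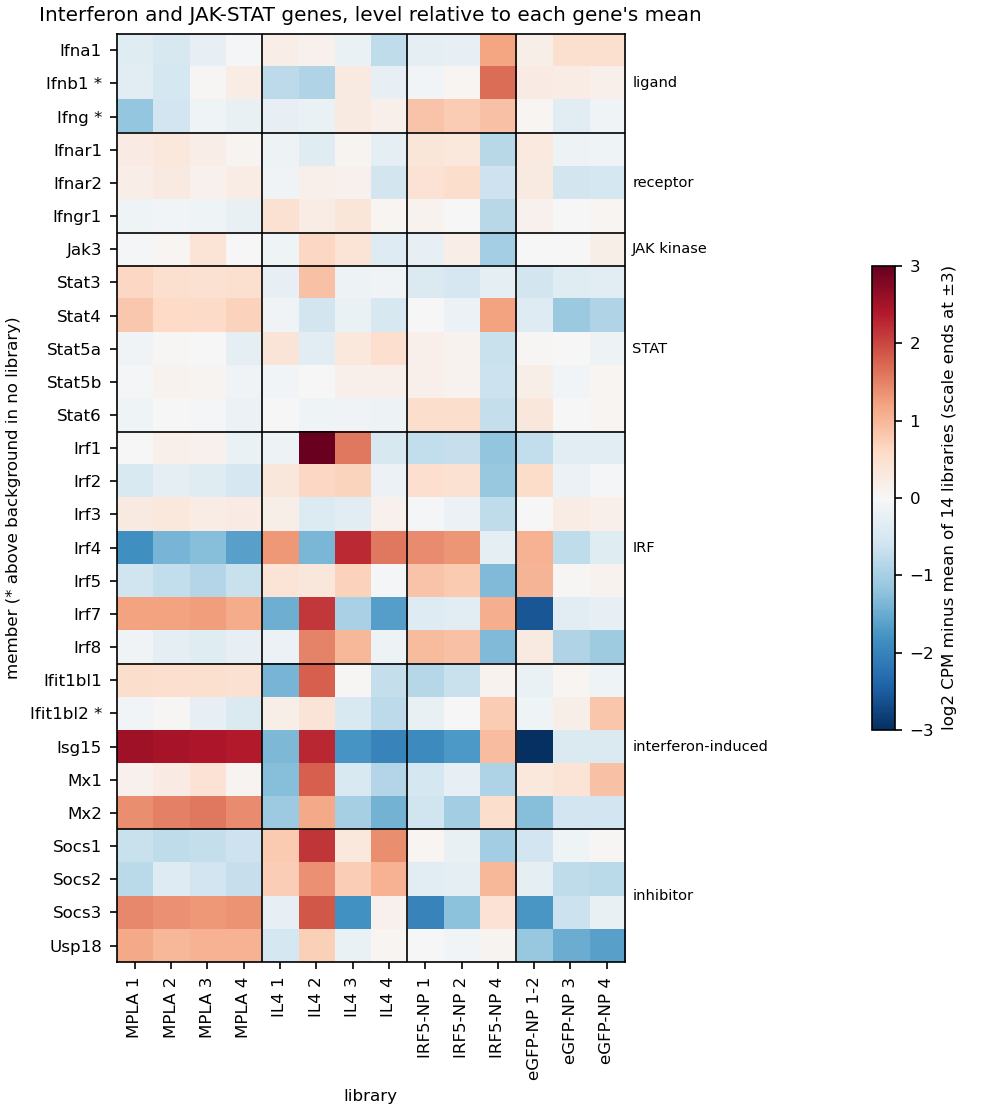
Level of 28 members (rows, by role) in each of the 14 libraries (columns, by group), as log2 CPM minus that gene's mean over the libraries. Red is higher and blue lower than the mean, and the colour scale ends at a difference of 3. An asterisk marks members above background in no library. Among the IL4 columns, IL4 2 is the reddest for Irf1, Irf7, Isg15 and Mx1, and the 4 MPLA columns are alike.

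Between MPLA and IL4 cultures, the M1-like and M2-like standards, edgeR called 3 of the 4 inhibitors, 3 of the 7 IRFs and 1 of the 6 STATs. Called members lower in MPLA were Socs2, Socs1, Irf5, Irf4 and Irf2, and called members higher in MPLA were Stat4 and Usp18. In all, 7 of the 29 members were called (24.1%), close to the share of all genes called (26.4%). Of these, 2 were higher and 5 lower (6.9% and 17.2% of members), beside 12.2% and 14.2% of all genes. The median log2 difference over members was -0.034, beside -0.054 over all genes.

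Socs2 encodes an inhibitor of cytokine receptor signalling that STAT5 induces. Its levels were 6.04, 6.45, 6.26 and 6.13 log2 CPM in MPLA 1 to 4, and 7.58, 8.21, 7.56 and 7.87 in IL4 1 to 4. Every IL4 library lay above every MPLA library. The level in MPLA was 3.03-fold lower (log2 difference -1.60 ± 0.23, adjusted p = 0.00261).

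Socs1, an inhibitor of JAK kinases, was at 7.59, 7.48, 7.54 and 7.62 log2 CPM in MPLA and at 9.03, 10.41, 8.57 and 9.65 in IL4. The groups did not overlap, and IL4 2 was the highest library. MPLA was 4.02-fold lower (log2 difference -2.01 ± 0.39, adjusted p = 0.00918).

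Irf5, the transcription factor delivered as mRNA in the nanoparticle experiment and a known driver of inflammatory macrophage genes, was lower in the M1-like than in the M2-like standard. Its endogenous level was 9.53, 9.40, 9.27 and 9.46 log2 CPM in MPLA and 10.54, 10.48, 10.84 and 10.08 in IL4. The groups did not overlap, and the difference was -1.07 ± 0.21 (2.10-fold lower, adjusted p = 0.00918). The Irf5 call was lost in 4 of 20 alternatives, among them one fit of all 4 groups (adjusted p = 0.0882) and the replicate block (0.0633). Irf4, an IL-4-linked factor of M2-like macrophages that competes with IRF5 for the adaptor MyD88, gave 18, 23, 28 and 21 counts in MPLA, none above background. In IL4 it gave 108, 19, 190 and 188 counts. IL4 2 alone among the IL4 libraries was not above background and lay within the MPLA range in log2 CPM (3.92). The fitted difference was -3.03 ± 0.66 (adjusted p = 0.0138), and the call was lost in 7 of 20 alternatives (adjusted p up to 0.373), among them the fits without MPLA 1 or without MPLA 4, with the fibroblast covariate and with the replicate block. Irf2, which can repress interferon targets, was at 7.57 to 7.81 log2 CPM in MPLA and 7.91 to 8.74 in IL4 (difference -0.77 ± 0.22, adjusted p = 0.0364). This call was lost in 14 of 20 alternatives, among them the fits without MPLA 1, 2, 3 or 4 and without IL4 1 or 3 (adjusted p at most 0.113 with a library left out).

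Stat4, which relays IL-12 and type I interferon signals, was above background in MPLA only. Counts were 72, 56, 61 and 66 in MPLA and 22, 19, 19 and 24 in IL4, and 9 to 24 in the nanoparticle libraries. The MPLA against IL4 difference was 1.08 ± 0.20 (adjusted p = 0.00746), measured against counts at background level. Usp18, an enzyme that removes ISG15 from proteins and damps type I interferon signalling, was at 8.06, 7.93, 7.98 and 7.98 log2 CPM in MPLA and 6.40, 7.64, 6.74 and 7.00 in IL4. All MPLA libraries were higher, by 1.00 ± 0.28 in the fit (2.00-fold, adjusted p = 0.0334). The Usp18 call was lost in 15 of 20 alternatives, with the direction unchanged, and when a library was left out it held only without IL4 2 (adjusted p 0.00208 to 0.095 over the 8 libraries left out in turn).

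The remaining IRFs and STATs did not pass the edgeR test between the standards. DESeq2 called Irf1 (-1.71 ± 0.71, adjusted p = 0.0406) and Irf8 (-1.04 ± 0.42, 0.0328) lower in MPLA and Mx2 higher, and gave no adjusted p for Irf7 and Mx1. Both Irf1 and Irf8 had their highest level in IL4 2. Irf3, Isg15 and Mx2 were higher in every MPLA than in every IL4 library (adjusted p = 0.25, 0.166 and 0.0593), so that 10 members (34.5%) had groups that did not overlap, against 37.3% of all genes. Stat6, the main STAT of IL-4, was at 9.87 to 10.05 log2 CPM in MPLA and 9.89 to 10.03 in IL4 (difference 0.034 ± 0.17, adjusted p = 0.904). Mx1 differed by -0.11 ± 0.66 (adjusted p = 0.924) and Ifng by -0.56 ± 0.31 at counts below background (adjusted p = 0.212).

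Fibroblast genes differed between these groups, with list means of 12.5 to 12.7 log2 CPM in MPLA and 4.67 to 11.9 in IL4. With that mean as a covariate 4 members were called (Irf5, Socs1, Socs2, Stat4). The calls depended on which libraries were used. With each nearly identical pair summed to 1 sample, no member was called (2.65% of all genes were), and without MPLA 1 or without MPLA 4 the count fell to 4. Without IL4 2 it rose to 15, of which 9 were higher and 6 lower (39.1% of all genes were called, 18.8% higher and 20.3% lower).

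IL4 2 stood apart from the other IL4 cultures in interferon response genes. For 16 of the 29 members (55.2%) it was the highest of the 4 IL4 libraries, against 31.6% of all genes. It lay at least 1 log2 unit above the mean of IL4 1, 3 and 4 for 11 members (37.9%), against 22.3% of all genes, among them Ifit1bl1, Irf1, Irf7, Irf8, Isg15, Mx1, Mx2, Socs1, Socs3 and Stat3.

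Irf1, an interferon-induced transcription factor, gave 663, 7153, 2062 and 769 counts in IL4 1 to 4 and 1079 to 1355 in MPLA. On the log2 CPM scale IL4 2 stood at 12.33, above the other IL4 libraries (8.88 to 10.94) and above MPLA (9.16 to 9.52), 6.31-fold over the other IL4 mean. IL4 3 held the next highest level. Irf8, a factor of myeloid cells that IFN-γ induces, gave 392, 1514, 819 and 573 counts in IL4 1 to 4 and was 2.39-fold over the other IL4 mean in IL4 2, with IL4 3 next again.

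Isg15 encodes a ubiquitin-like protein and is strongly induced by interferon. It gave 194, 2955, 135 and 177 counts in IL4 1 to 4, and 4927, 4240, 4521 and 4328 in MPLA 1 to 4. At 11.06 log2 CPM, IL4 2 lay just below the MPLA range of 11.16 to 11.33, and the other IL4 libraries lay at 6.78 to 7.43. Irf7, the factor that amplifies type I interferon, had the same split, with 50, 760, 66 and 63 counts in IL4 against 500 to 568 in MPLA. IL4 2 exceeded every MPLA library for Irf7 on the log2 CPM scale (9.10 against at most 8.22).

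Mx1 and Mx2 encode antiviral GTPases, although both are annotated as transcribed pseudogenes in the reference assembly GRCm38.p6. Mx1 gave 19, 212, 32 and 37 counts in IL4 1 to 4 and 90, 88, 112 and 85 in MPLA. Mx2 gave 15, 94, 15 and 17 counts in IL4 and 156, 152, 177 and 155 in MPLA. Apart from IL4 2, only IL4 4 for Mx1 exceeded background among these IL4 values. Socs3, an inhibitor induced by STAT3, gave 51, 280, 15 and 96 counts in IL4 and 245 to 286 in MPLA.

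With IL4 2 left out, Isg15 was 4.17 ± 0.24 log2 units higher in MPLA (adjusted p = 5.96e-05), Mx2 2.79 ± 0.18 (7.24e-05), Irf7 2.59 ± 0.20 (0.000123), Socs3 1.83 ± 0.44 (0.015), Mx1 1.13 ± 0.22 (0.00677) and Stat3 0.70 ± 0.14 (0.00806). Irf1 remained uncalled, at -0.55 ± 0.46 (adjusted p = 0.376). The 7 members called with all libraries kept their direction and call. IL4 2 was picked out by its high levels of these genes, so larger differences without it follow in part from that choice. The nearly identical MPLA pairs also stayed separate in this fit.

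**Figure D2:**
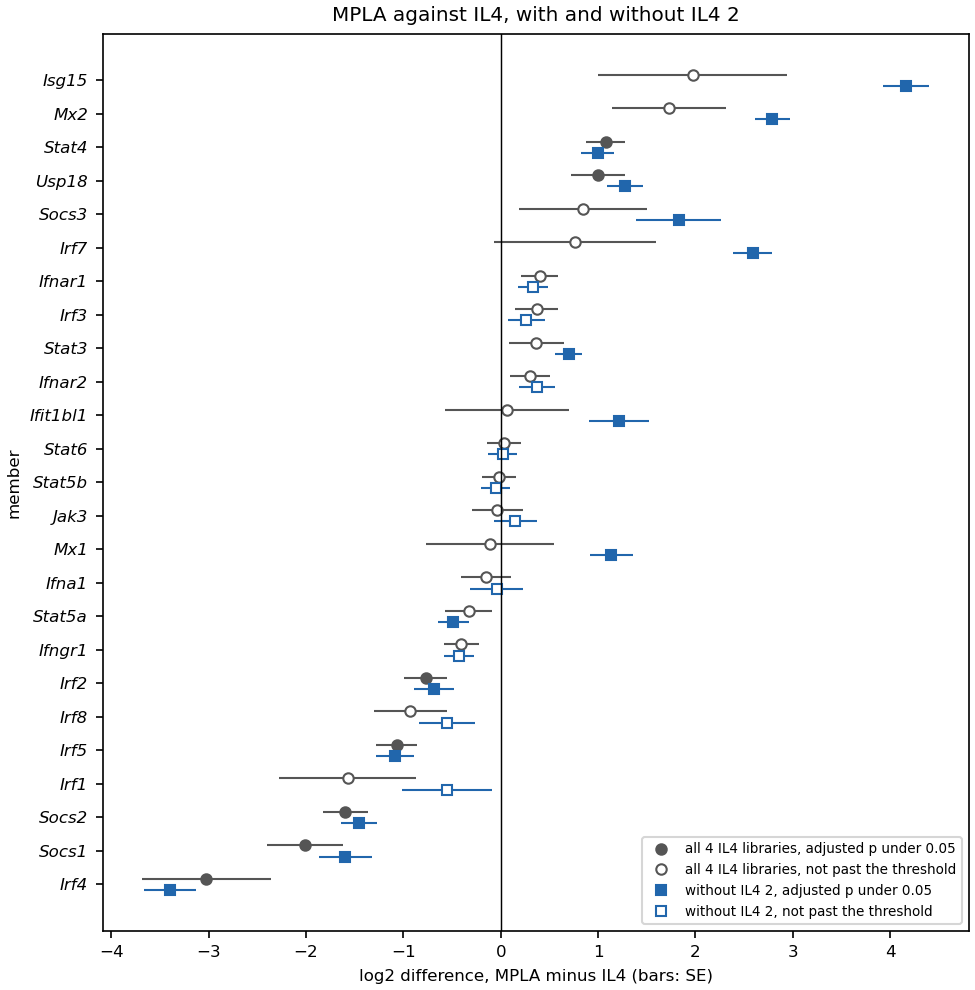
Log2 difference between MPLA and IL4 for 25 members above background in at least 1 library, from the edgeR fit with all 4 IL4 libraries (grey circles) and without IL4 2 (blue squares). Bars are SE and filled symbols have an adjusted p under 0.05. Isg15 moves from 1.97 to 4.17, Irf7 from 0.76 to 2.59 and Mx1 from -0.11 to 1.13 when IL4 2 is left out, whereas Socs2 stays between -1.60 and -1.46.

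Other interferon and STAT targets were highest in IL4 2 as well. Of the 15 genes of that list in the table, all 15 had their highest IL4 level there, 14 by at least 1 log2 unit, with a median of 2.42 beside -0.00504 over all genes. The chemokine gene Cxcl9, a classical IFN-γ target, gave 24006 counts in IL4 2 and 12 to 81 in the other libraries. Cxcl10, which IFN-γ and type I interferon both induce, gave 2736 counts in IL4 2 and 13 to 559 elsewhere, and the antigen transporter gene Tap1 4161 against 61 to 719. Ifng itself was at 9 counts in IL4 2, below background.

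Markers of other cells differed in this library, in both directions. Klrk1, found on NK and T cells, gave 341 counts in IL4 2 and at most 29 elsewhere, while Ms4a1, Gzma and Nkg7, the other lymphocyte markers of the table, gave 16 to 21. The dendritic cell markers Clec9a and Xcr1 gave 252 and 56 counts in IL4 2 against at most 17 and 15 elsewhere, and Itgax gave 26 counts against 2293 at most in the other IL4 libraries. Batf3 (-1.67) and Ccr7 (-0.96) also lay below the mean of the other IL4 libraries in log2 units, and Flt3 (0.63) lay above it. Of 12 granulocyte markers 1 (Elane) lay at least 1 log2 unit above that mean and 2 (Cxcr2, Mmp8) at least 1 below. The list means were 4.92 log2 CPM for the 4 lymphocyte markers (3.79 to 4.88 in the other IL4 libraries) and 5.17 for the 6 dendritic cell markers (5.19 to 5.82). All 7 fibroblast genes had their highest IL4 level in IL4 2. Of the 12 macrophage markers 3 did, Fcgr1 (also on the target list), Mertk and Siglec1, each by over 1 log2 unit, while Cd68 (-1.64) and Ctsd (-1.88) were over 1 log2 unit below the mean of the other IL4 libraries. The part of these cell types in the interferon gene levels of IL4 2 was not tested.

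Promoters are shown for the members high in IL4 2, those at least 1 log2 unit above the other IL4 mean. These members were picked by these same values. Sequences of 250 bases before each RefSeq start (GRCm38.p6) were searched on both strands for GAAA, any 2 bases and GAAA again, the core of the interferon-stimulated response element, and for TTCNNNGAA, the core of the gamma-activated site to which STAT dimers bind. Entries were found for 24 of the 29 members, and Socs2, Usp18, Mx1 and Mx2 were among those with none. The GAAA pair occurred in 7 of the 24 (Irf2, Stat4, Socs1, Ifit1bl1, Ifit1bl2, Isg15, Ifna1) and in 3.46% of all genes of the promoter table. TTCNNNGAA occurred in 7 of the 24 (Irf1, Irf2, Irf8, Socs3, Ifna1, Ifng, Ifnar2) and in 8.13% of all genes. One or the other stood before 6 of the 8 members high in IL4 2 that had an entry, 6 of the 16 other members and 11.1% of all genes. All members were chosen by name and the 8 by their levels, so these shares were not tested and describe the picked genes only. TTC and GAA 4 bases apart, the spacing that STAT6 prefers, occurred in 0 of the 24 members and in 6.76% of all genes. The 6 are printed along the gene's strand, with the matched bases in capitals and 20 bases on each side.
Isg15 (chr4:156200855-156200916, minus strand): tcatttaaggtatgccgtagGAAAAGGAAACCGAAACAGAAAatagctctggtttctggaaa
Socs1 (chr16:10785584-10785639, minus strand): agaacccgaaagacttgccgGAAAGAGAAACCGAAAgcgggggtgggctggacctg
Ifit1bl1 (chr19:34602043-34602092, minus strand): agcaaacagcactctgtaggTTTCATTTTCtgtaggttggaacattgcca
Irf1 (chr11:53769904-53769952, plus strand): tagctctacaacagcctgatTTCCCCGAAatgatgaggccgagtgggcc
Irf8 (chr8:120736167-120736233, plus strand): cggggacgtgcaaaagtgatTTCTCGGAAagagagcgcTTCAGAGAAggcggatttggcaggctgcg
Socs3 (chr11:117969492-117969540, minus strand): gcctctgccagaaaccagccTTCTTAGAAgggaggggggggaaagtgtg

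Isg15 held 3 overlapping matches of the GAAA pair and Socs1 held 2, while Irf8 held 2 separate matches of TTCNNNGAA. In Ifit1bl1 the match lies on the opposite strand, and a separate site before a further RefSeq start of this gene (stretch chr19:34599428-34599470) held a match with the same letters. A match describes these letters only. Binding of a factor there was not measured.

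**Figure D3:**
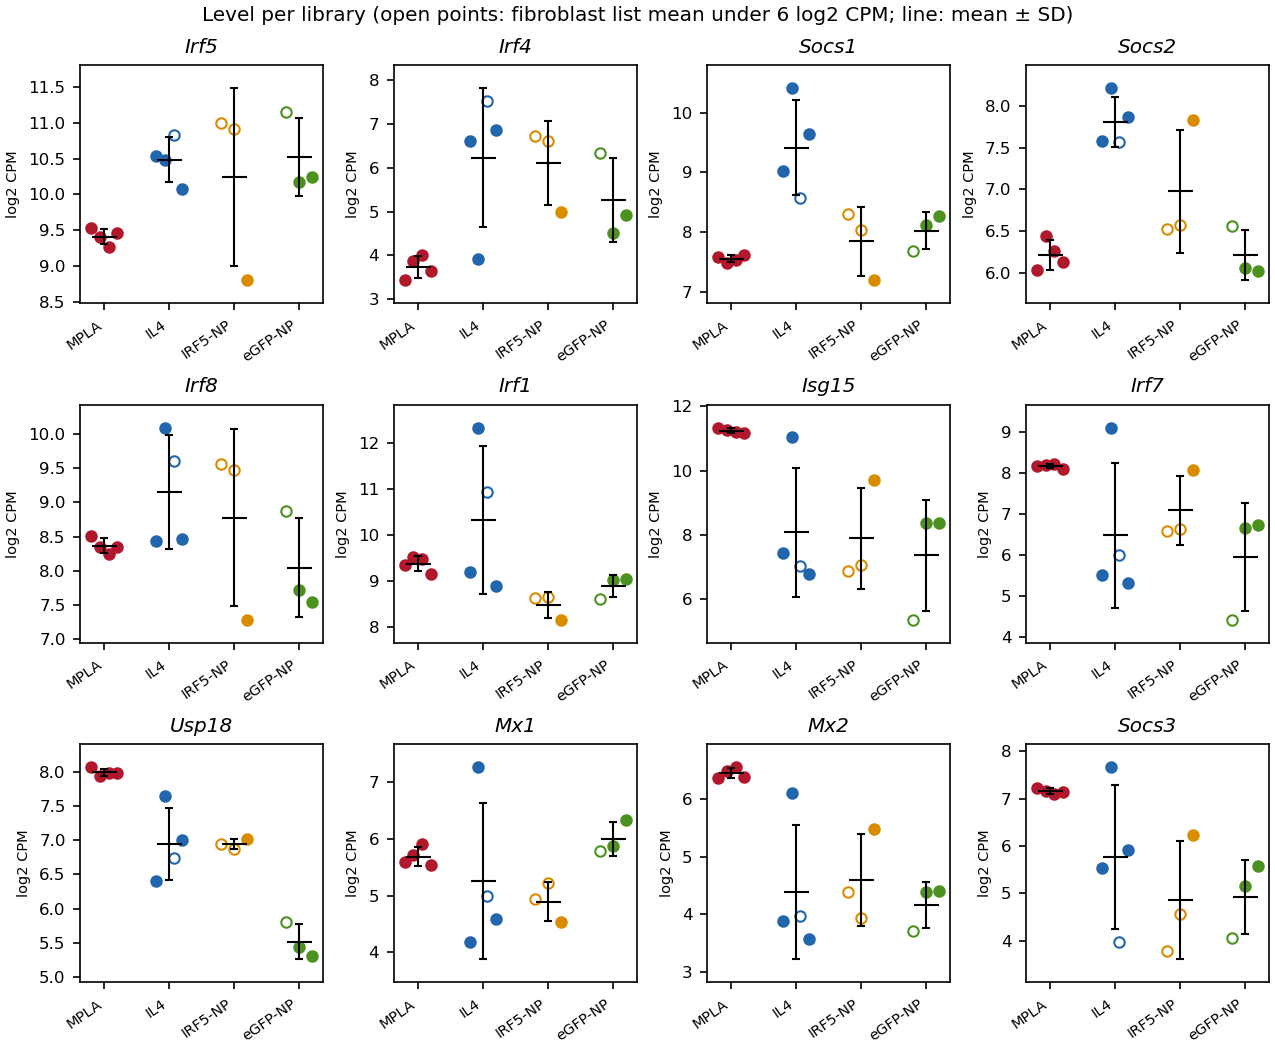
Log2 CPM of 12 members in each library, by group, with the group mean and SD as a black line and bar (n = 4 for MPLA and IL4, n = 3 for the nanoparticle groups). Open points are the 4 libraries with a fibroblast gene mean under 6 log2 CPM. One IL4 point, IL4 2, stands at 12.33 for Irf1, 11.06 for Isg15 and 9.10 for Irf7. Usp18 lies between 6.87 and 7.02 in IRF5-NP and between 5.31 and 5.80 in eGFP-NP.

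IRF5-NP against IL4 set sorted cultures given IRF5 nanoparticles beside the IL-4 standard, with the particles, the sorting and the low-dose IL-4 step not separable, and no member was called. The edgeR test called 0 of 29 members and 0.0% of all genes, with 3 members at an unadjusted p under 0.05. DESeq2, which gave no adjusted p for Irf7 and Isg15, and limma also called 0 members. The median log2 difference over members was -0.37, beside -0.14 over all genes.

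Socs1 had the smallest p of these members. It was at 8.30, 8.04 and 7.20 log2 CPM in IRF5-NP 1, 2 and 4, below all IL4 libraries (difference -1.79 ± 0.56, adjusted p = 0.508). Irf1 was at 8.62, 8.66 and 8.16 log2 CPM, also below all IL4 libraries, of which IL4 1 and 4 were the nearest at 9.19 and 8.88 (difference -2.61 ± 0.91, adjusted p = 0.588). Without IL4 2 the Irf1 difference was -1.48. Ifng, the third member, differed by 0.81 ± 0.30 (adjusted p = 0.615) with no count above background. In all, 4 members (Ifng, Irf1, Socs1, Stat3; 13.8%) had groups that did not overlap, against 8.75% of all genes.

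The Irf5 probe gave no called difference between IRF5-NP and IL4. Irf5 was at 11.00 and 10.92 log2 CPM in IRF5-NP 1 and 2 and at 8.80 in IRF5-NP 4, where 205 counts were recorded. The first pair lay above all IL4 libraries and IRF5-NP 4 below them. Irf5 was at 11.16, 10.18 and 10.24 in eGFP-NP 1-2, 3 and 4, so that eGFP-NP 1-2 lay above every IRF5-NP library. Those 3 high libraries were also the nanoparticle libraries with low fibroblast gene levels. The difference between IRF5-NP and IL4 was -0.11 ± 0.55 (adjusted p = 0.956). Without IRF5-NP 4 it was 0.31, and with the fibroblast gene mean as a covariate it was -0.88 ± 0.55 (adjusted p = 0.552). By the methods the IRF5 message was codon-optimised, and whether the panel's Irf5 probe binds it was not tested.

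Socs2, Usp18 and Mx1 were not called either. Socs2 was at 6.53, 6.58 and 7.83 log2 CPM in IRF5-NP (difference -0.82 ± 0.47, adjusted p = 0.827). Usp18 was at 6.94, 6.87 and 7.02, within the IL4 range (-0.19 ± 0.41, adjusted p = 0.909). Mx1 differed by -1.04 ± 0.83 (adjusted p = 0.846) and by 0.33 without IL4 2, which gave the highest Mx1 level.

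eGFP-NP against IL4 set sorted cultures given control particles beside the IL-4 standard, for which no sorting or low-dose IL-4 step is described. Particles, sorting and IL-4 dose cannot be told apart. No member was called (0.0% of all genes), 4 had an unadjusted p under 0.05, and all 4 members whose groups did not overlap (Socs1, Socs2, Stat3, Usp18; 13.8%, against 11.9% of all genes, 6.9% in this direction) were lower in eGFP-NP. DESeq2, which gave no adjusted p for 6 members (Ifit1bl2, Ifnb1, Ifng, Irf7, Isg15, Mx1), called 3 (Socs1, Socs2, Usp18, all lower; 7.43% of all genes, 5.04% lower) and one fit of all 4 groups called Socs2 and Usp18, both lower (2.25% of all genes, 1.72% lower).

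Socs2 was at 6.56, 6.06 and 6.02 log2 CPM in eGFP-NP 1-2, 3 and 4, beside 6.04 to 6.45 in MPLA, and below all IL4 libraries (difference -1.75 ± 0.37, adjusted p = 0.185). Usp18 was at 5.80, 5.44 and 5.31, the lowest of the 4 groups (-1.65 ± 0.43, adjusted p = 0.285). Socs1 was at 7.69, 8.12 and 8.28 (-1.67 ± 0.52, adjusted p = 0.285). These 3 inhibitors were lower in every eGFP-NP than in every IL4 library. Irf5 differed by -0.039 ± 0.39 (adjusted p = 0.985), Mx1 by 0.065 ± 0.79 (0.987) and Ifng by -0.26 ± 0.27 at background (0.869).

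IRF5-NP against eGFP-NP compared the cargo between treated cultures. Usp18 was higher in IRF5-NP and Mx1 lower, each in every library, although Mx1 exceeded background in only 1 of 3 IRF5-NP libraries. Irf7 and Isg15 were higher within each replicate number, but no member passed the edgeR test. It called 0 of 29 members and 0.0% of all genes, with 3 members at an unadjusted p under 0.05 (Usp18, Ifng, Mx1). Of the members, 6 (among them Ifng, Irf3, Mx1, Stat4 and Usp18; 20.7%) had groups that did not overlap, against 14.7% of all genes. Ifng and Stat4 were below background in all of these libraries.

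Usp18 was at 6.94, 6.87 and 7.02 log2 CPM in IRF5-NP and 5.80, 5.44 and 5.31 in eGFP-NP. Its counts were 137, 125 and 59 against 57, 65, 43 and 33. The difference was 1.48 ± 0.31 (2.79-fold, edgeR adjusted p = 0.626). DESeq2 gave 1.34 with an adjusted p of 0.000993 and called no other member (0.796% of all genes). The IRF5-NP levels lay within the IL4 range of 6.40 to 7.64, and the eGFP-NP levels lay below it.

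Mx1 was at 4.93, 5.22 and 4.53 log2 CPM in IRF5-NP and 5.79, 5.89 and 6.34 in eGFP-NP. Its counts were 33, 39 and 10, with 1 of 3 libraries above background, against 59 to 69 with all above background. The difference was -1.11 ± 0.31 (adjusted p = 0.8291). Irf5 differed by -0.11 ± 0.59 (adjusted p = 0.946), Socs2 by 0.99 ± 0.55 (0.8291) and Ifng by 1.08 ± 0.30 (0.8291).

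Samples with the same replicate number deviated together in these groups (correlation across genes of their deviations from the group means 0.823, 0.821 and 0.818 for numbers 1, 2 and 4), so same-numbered libraries were set side by side. Numbers 1 and 2 had low and number 4 high fibroblast gene levels in both groups. IRF5-NP 1 and 2, and eGFP-NP 1 and 2, were nearly identical pairs, so that numbers 1 and 2 are close to a single comparison. Since eGFP-NP 3 and 4 were such a pair too, the correlations cannot tell pairing by number from the split in fibroblast gene levels.

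Within numbers, Irf7 was higher in IRF5-NP by 2.17, 2.20 and 1.32 log2 units for numbers 1, 2 and 4. Its counts were 107, 106 and 122 in IRF5-NP against 22, 23 and 91 in eGFP-NP, and the 22 and 23 did not exceed background. Isg15 was higher by 1.49, 1.75 and 1.36, from 132, 144 and 385 counts against 45, 44 and 282. Usp18 was higher by 1.21, 1.00 and 1.71. All 3 are interferon-responsive genes, while Mx1, which also is, was lower by number, at -0.84, -0.57 and -1.80. Mx1 did not exceed background in IRF5-NP 1 and 4, so the sizes of the differences for those numbers are limited by detection.

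With a block for the replicate number, the differences were 1.84 ± 0.32 for Irf7, 1.26 ± 0.22 for Usp18 and 1.48 ± 0.26 for Isg15 (adjusted p = 0.208 for each), and again no member was called. The block fit kept eGFP-NP 1 and 2 as separate samples beside IRF5-NP 1 and 2, and eGFP-NP 3 had no partner. Its SEs therefore count numbers 1 and 2 as separate comparisons. With the fibroblast gene mean as a covariate Irf7 (1.97 ± 0.17) and Isg15 (1.73 ± 0.15) were called (adjusted p = 0.00778 for each; 2.12% of all genes were called), and Usp18 was not (1.44 ± 0.24, adjusted p = 0.0528). The covariate fit counted the nearly identical IRF5-NP 1 and 2, and eGFP-NP 3 and 4, as separate samples. Its SEs and p-values may therefore be too small.

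Of the 29 members, 9 (31.0%) were higher in IRF5-NP for all 3 numbers against 17.2% of all genes, 4 (13.8%; Irf3, Irf5, Mx1, Ifngr1) were lower against 25.5%, and 16 were mixed. The 9 included Irf4, Irf7, Isg15, Stat3, Usp18 and, below background throughout, Stat4, Mx2 and Ifng. Socs2 was mixed, at -0.25, 0.27 and 1.81.

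IRF5-NP 4 had the fewest counts of all libraries, so a given count there stands for a higher level on the CPM scale: 23 counts of Stat4 gave 5.68 log2 CPM, against 4.50 for 24 counts in IRF5-NP 1. Values at background level in that library are therefore high on this scale, which holds for Stat4, Mx2, Ifnb1 and Ifng.

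**Figure D4:**
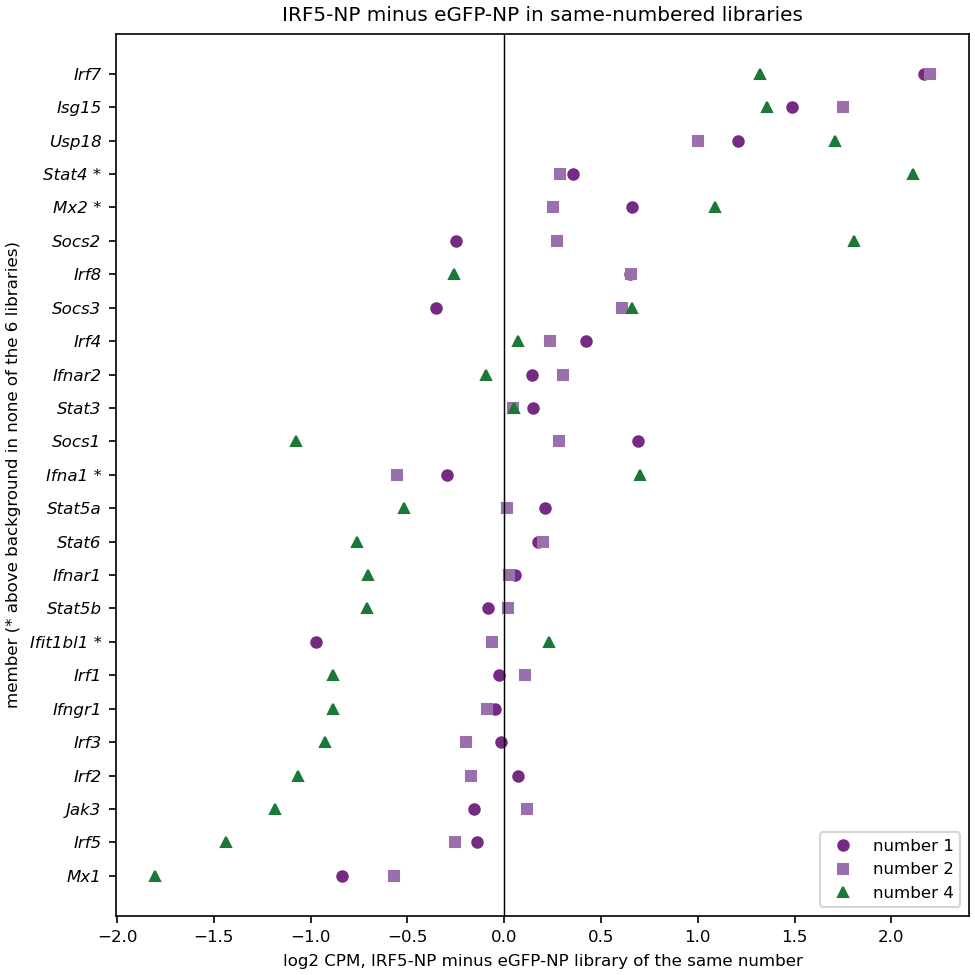
Log2 CPM in the IRF5-NP library minus that in the eGFP-NP library of the same replicate number, for 25 members. Circles, squares and triangles are numbers 1, 2 and 4, and an asterisk marks members above background in none of these 6 libraries. Irf7, Isg15 and Usp18 lie at or above 1.00 for every number, and Mx1 lies between -1.80 and -0.57. Mx1 was not above background in IRF5-NP 1 and 4.

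Other genes of the pathway were counted from lists of sensors and adaptors, JAK-coupled receptors and interferon and STAT targets, beside the 26.4% of all genes that edgeR called between MPLA and IL4. Of 11 sensors and adaptors in the table, 3 were called. Cd14, a co-receptor for lipopolysaccharide, was higher in MPLA (2.53 ± 0.28, adjusted p = 0.000702), and the receptor genes Tlr8 (-1.57 ± 0.23, 0.00275) and Tlr4 (-0.68 ± 0.19, 0.0349) were lower. Of 10 JAK-coupled cytokine receptors, Il6ra (-1.10 ± 0.19, adjusted p = 0.00653) and Il27ra (-2.16 ± 0.51, 0.0187) were lower in MPLA, the latter with no MPLA count above 16. Of 15 interferon and STAT targets 1 was called, the immunoproteasome gene Psmb9, lower in MPLA (-2.07 ± 0.62, adjusted p = 0.0402).

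Psmb9 gave 309, 2172, 608 and 333 counts in IL4 1 to 4 and 224 to 352 in MPLA, so that IL4 2 was again the highest. Without IL4 2 the Psmb9 difference was -1.18 (adjusted p = 0.0351), and 11 of the 36 pathway genes were called, 6 higher and 5 lower, beside 39.1% of all genes. Called higher in MPLA in that fit, besides Cd14, were the targets Ccl5 (4.58, adjusted p = 0.00201) and Cxcl10 (2.37, 0.0105) and the sensors Tlr2 (2.00, 0.00132), Ikbke (0.83, 0.00497) and Tlr3 (0.69, 0.0169). Cxcl10 had differed by -1.02 with all libraries. Here too IL4 2 was picked out by its high levels, and the nearly identical MPLA pairs stayed separate. The Psmb9 call was lost without MPLA 1, 2, 3 or 4 or IL4 3 (adjusted p at most 0.115), the Tlr4 call without MPLA 1, 2, 3 or 4 or IL4 1 (at most 0.109), and the Il27ra call without MPLA 1, 3 or 4 (at most 0.0629). Over all 20 alternatives Psmb9 and Tlr4 each lost the call in 11 and Il27ra in 8, the fibroblast covariate and the replicate block included. Cd14, Tlr8 and Il6ra kept their calls whichever library was left out, although Tlr8 and Il6ra lost theirs with nearly identical pairs merged and Tlr8 also in one fit of all groups. Cd14, Tlr8 and Il6ra each lost the call by the methods' t-test with Benjamini-Yekutieli adjustment.

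In the 3 nanoparticle comparisons edgeR called none of these 36 pathway genes, with 6, 7 and 2 at an unadjusted p under 0.05 in IRF5-NP against IL4, eGFP-NP against IL4 and IRF5-NP against eGFP-NP. DESeq2 called 2 in the first (Csf3r and Tlr9; 2.52% of all genes), 6 in the second (Cd40, Csf3r, Fcgr1, Il6ra, Psmb9 and Tlr9, all lower; 5.04% of all genes were called lower) and 0 in the last. Between MPLA and IL4 it called 13 (38.6% of all genes). DESeq2 gave no adjusted p for Cxcl9, Cxcl10 and Cxcl11 in any comparison with IL4, for Fcgr1 in MPLA against IL4, for Ccl5 in both nanoparticle comparisons with IL4 or for Il5ra in eGFP-NP against IL4. Its counts there rest on 31 or 32 of the 36 genes.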

How the data were processed

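RNA of 15 BMDM samples was counted on the nCounter panel, and the authors deposited raw whole-number counts for 768 probes (754 genes, 6 positive and 8 negative controls). The methods name scaling to housekeeping genes, a log2 transform and Benjamini-Yekutieli adjusted t-tests. No such scaling had been applied to the deposited counts. All genes were tested here by edgeR's quasi-likelihood test (edgeR 4.0.16, R 4.3.3) with TMM scaling, no filter, the 2 groups compared alone and Benjamini-Hochberg adjustment over 754 genes, two-sided, called at an adjusted p under 0.05. Errors of differences are SE and those of levels SD. Alternatives were DESeq2 1.42.0, limma 3.58.1, the methods' t-test, other scalings and filters, merged or separate libraries, a fibroblast covariate, the replicate number as a block and leaving out each sample. Scripts were tested on simulated data. Lane and cartridge were not given in the sources used here, so no assay batch was tested. Promoters are RefSeq's (GRCm38.p6). All 29 symbols matched current ones.

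The members, lists, markers and comparisons were chosen with earlier results of these data known. Named in every comparison were Irf5, Usp18, Mx1, Socs2 and Ifng, all called members and, with fewer than 3 called, the 3 with the smallest p. Other members were named after their values were seen. One member counted in the totals is not reported here by name.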

Additional observations from a re-analysis of the deposited data

Results flagged for a closer look

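In 58 groups of 4 libraries (29 members in MPLA and IL4), 4 had a highest library whose gap to the next took a share of the group's range above Dixon's critical value, which chance exceeds in about 1 in 20 groups. IL4 2 was that library for Stat3 (0.876 of the range, 10.57 log2 CPM), Isg15 (0.847, 11.06 log2 CPM) and Mx2 (0.839, 6.11 log2 CPM). MPLA 1 was that library for Stat3 (0.833, 10.30 log2 CPM), in a group whose SD was 0.071. The cause of these gaps was not tested.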

How the results depend on the processing

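Members called between MPLA and IL4 numbered 7, and 11 by DESeq2 (38.6% of all genes), 0 with nearly identical pairs merged, 0 by the methods' t-test with Benjamini-Yekutieli adjustment, 4 with the fibroblast covariate, 4 with the replicate block and 4 to 15 when a library was left out (4 without MPLA 1 or MPLA 4, 15 without IL4 2). The count was 0 in every alternative for IRF5-NP against IL4. For eGFP-NP against IL4 it was 3 by DESeq2 and 2 in one fit of all groups, and for IRF5-NP against eGFP-NP 1 by DESeq2 and 2 with the fibroblast covariate. Only in the last comparison did all same-numbered samples deviate together, and the block changed no call there. In the other 3, deviations of same-numbered samples correlated at -0.816 to 0.318.

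Directions turned only for differences that had not been called. Mx1 in MPLA against IL4 (-0.11) was 0.22 by limma and the methods' t-test, 0.50 with the replicate block and -0.41 to 1.13 with a library left out. Irf5 in IRF5-NP against IL4 (-0.11) was 0.031 by DESeq2 and with median-ratio scaling, 0.016 in one fit of all groups and -0.39 to 0.31 with a library left out. Likewise, Usp18 (-0.19) ranged from -0.36 to 0.21 and Mx1 (-1.04) from -1.34 to 0.33. In eGFP-NP against IL4, Irf5 (-0.039) was 0.13 by DESeq2 and with median-ratio scaling, 0.089 in one fit of all groups, 0.12 with eGFP-NP 1 and 2 separate, 0.11 with pairs merged, 0.067 with the replicate block and -0.30 to 0.22 with a library left out. Mx1 (0.065) was -0.39 with housekeeping scaling, -0.077 with counts raised to background, -0.013 with pairs merged and -0.24 to 1.45 with a library left out, and Ifng (-0.26) was 0.098 with counts raised to background. Irf5 in IRF5-NP against eGFP-NP (-0.11) was 0.16 with housekeeping scaling, 0.037 by limma and the methods' t-test and -0.36 to 0.33 with a library left out. The cause was not tested.

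Housekeeping scaling moved the median of all genes by -0.26 in MPLA against IL4, 0.11 and -0.20 in IRF5-NP and eGFP-NP against IL4, and 0.29 in IRF5-NP against eGFP-NP. Counts at background limit Ifng, Ifnb1, Ifit1bl2, Ifna1 and Stat4.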
